A study of Homo sapiens with 28 samples.

Results

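ETV1, ETV4 and ETV5 are the PEA3 group of ETS transcription factors, and their RNA was followed here in xenograft tumours of human kidney cancer lines. The 3 genes, of 19775 with a probe set of their own on the array, were taken by name. They were selected on their signals in A498, which were higher in sorafenib-resistant than in untreated tumours, so those values describe the choice and are given with no test. Together they have 12 of the 41091 probe sets with 1 gene symbol, 5 for ETV1, 2 for ETV4 and 5 for ETV5. Of these, 10 were above the median signal of all arrays, 89.4, on at least 4 arrays and entered the model, as did 26924 probe sets in all.

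PEA3 factors bind DNA through an ETS domain and activate genes of growth, invasion and branching of epithelia, including the ureteric bud of the developing kidney. Growth factor receptors raise their transcription through RAS, RAF, MEK and ERK, and the repressor capicua (CIC), which ERK signalling inactivates, holds their genes down. The COP1 ubiquitin ligase with its adaptor DET1 degrades the proteins, so RNA and protein need not move together. In several cancers their RNA is used as a readout of ERK activity, beside DUSP6, the ERK phosphatase, and the Sprouty genes, which are feedback inhibitors.

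The series has 28 subcutaneous tumours of A498 and 786-O, clear cell renal carcinoma lines that both lack working VHL, grown in female athymic nude/beige mice injected at 6 to 8 weeks of age. In A498 there were 5 tumours resistant to sorafenib and 4 untreated ones. In 786-O there were 5 resistant to sorafenib and 5 untreated in the same arm, and 4 resistant to sunitinib and 5 untreated in that arm. Sorafenib, an inhibitor of RAF kinases and of the VEGF and PDGF receptors, was given at 80 mg/kg by gavage. Sunitinib, an inhibitor of receptor kinases including those of VEGF, PDGF and stem cell factor, was given at 53.6 mg/kg. Both were given on 6 days of the week. Dosing began at a tumour diameter of 12 mm. Mice were killed either at that size without dosing or once tumours reached 20 mm, but the labels give no size or time for single tumours, so that these cannot be told apart from drug. Each line is a single cell line in a mouse host whose stroma, vessels and some immune cells remain, and mouse RNA can bind to the human probes. As the labels do not tie tumours to mice, the p-values reflect only how these tumours varied.

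The values are linear signals of Affymetrix HG-U133 Plus 2.0 arrays, which share a trimmed mean, and differences below are on the log2(signal + 16) scale, resistant minus untreated unless named otherwise, ± standard error. That scale understates changes of dim probe sets, and levels of different probe sets cannot be ranked. A probe set was called at a limma p adjusted over all 26924 probe sets of less than 0.05. Overlap of groups is given as description only, as the share of all probe sets without overlap was not counted. Array medians ran between 79.7 and 99.4. Centring each array on its median moved all differences by 0.09 with sorafenib and 0.07 with sunitinib in 786-O and by -0.05 in A498, and the share of called probe sets that were higher became 66.9%, 58.1% and 27.7%, against 43.7%, 39.2% and 48.2% as deposited, and 23.2% against 45.6% between the untreated 786-O arms (30.6% after quantile normalisation). Markers of renal carcinoma were present as the label says, with 8 or 9 of the 9 that have a probe set above the median signal on every array of each group. Endothelial, macrophage and muscle markers were mostly dim, with 0 to 2 of 12, 0 to 3 of 11 and 0 to 3 of 11 above it on every array of a group, and CDH5, KDR, VWF and TEK were below it on all arrays. In the 786-O sorafenib arm the summed signal of 12 fibroblast and pericyte markers was 3121 to 5406 in resistant tumours, against 8265 to 11649.9 in untreated ones (LUM and PDGFRB were below the median signal on every array of both groups), and that of 11 neural markers was 14944 to 19426 against 21901 to 27212 (4 above the median signal on every array of both groups, ELAVL4, S100B and SOX10 below it on all). The endothelial sum there was 375 to 635 in resistant and 568 to 767 in untreated tumours. In A498 the fibroblast and pericyte sum was 11157 to 25178 in resistant and 7483 to 16931 in untreated tumours, and the neural sum 15215 to 22161 and 15116 to 17910. In bulk tissue fewer cells of a type, less RNA per cell and a change in the human tumour cells themselves cannot be told apart. The largest 3′ minus 5′ differences of ACTB, a sign of RNA quality, were 0.674 (786-O sorafenib-resistant, replicate 4) and 1.03 (786-O untreated of the sorafenib arm, replicate 5).

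Only for ETV1 did the RefSeq promoter table used here hold windows, 6 of 300 bases each, of build GRCh38.p14. The window of the most upstream start is shown because it is the 1 of the 6 with the letters TGAATGG, the first 7 of a capicua octamer, in capitals, 125 bases before the annotated start.
ETV1 promoter, chr7:13991376-13991675, minus strand: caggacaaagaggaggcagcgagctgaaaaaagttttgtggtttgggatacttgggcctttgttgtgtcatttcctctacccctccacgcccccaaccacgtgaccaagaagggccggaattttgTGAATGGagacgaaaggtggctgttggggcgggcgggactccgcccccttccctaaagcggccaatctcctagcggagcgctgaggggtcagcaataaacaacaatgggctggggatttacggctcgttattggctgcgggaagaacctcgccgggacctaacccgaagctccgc
Both strands were searched. TGAATGG was in 3.2% of all 35116 promoter windows. TGAATGA, the other capicua form, was in 0 of the 6 ETV1 windows and 4.01% of all, and the AP-1 site TGAGTCA in 0 of the 6 and 4.95% of all. The ETS core GGAA, which the PEA3 site AGGAAG contains, was in 6 of 6 and 95.5% of all, and AGGAAG itself in 2 of 6, a pair of windows that overlap and share the site, and 33.6% of all. These matches describe letters and show no binding.

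In A498, where the genes were chosen, the probe set of highest mean of each gene was higher in resistant tumours by 1.38 (ETV5), 1.43 (ETV1) and 1.74 (ETV4) on the log2 scale. ETV5 (probe set 203349_s_at) had signals of 926, 1248, 1186, 1166 and 935 in the 5 resistant tumours, against 359, 406, 536 and 354 in the 4 untreated tumours. ETV1 (221911_at) had 711, 833, 746, 588 and 402 in resistant tumours, against 246, 229, 274 and 169 in untreated tumours. Neither gene's groups overlapped, and every resistant A498 tumour was above every untreated one. ETV4 (1554576_a_at) had 144, 186, 255, 265 and 207 in resistant tumours, against 21.0, 46.2, 151 and 35.8 in untreated tumours. These groups overlapped at 1 tumour, since untreated replicate 3 was above resistant replicate 1.

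The other probe sets that entered the model pointed the same way in A498, with no test for the same reason. For ETV4, 211603_s_at had 63.9, 117, 112, 97.8 and 107 in resistant tumours, against 58.5, 27.7, 39.6 and 13.5 in untreated tumours, a difference of 1.24 ± 0.32. Here the groups were apart, although most of the signals were close to or under the median signal. The other ETV1 probe sets differed by 0.85 (206501_x_at), 0.87 (217053_x_at) and 1.13 (217061_s_at), and the other ETV5 probe sets by 0.49 (216375_s_at), 1.02 (230102_at) and 1.20 (203348_s_at). Over all probe sets tested, 2.13% were called higher in this comparison. The smallest of the 10 differences, 0.49 of ETV5 216375_s_at, was also the only one besides ETV4 1554576_a_at whose groups overlapped. As the genes were chosen here, and the share of all probe sets without overlap was not counted, this describes the choice only. Of the 2 probe sets outside the model, ETV1 221910_at was at 55.5 to 92.2 in resistant and 27.7 to 59.2 in untreated A498 tumours, and ETV5 231083_at at 14.9 to 54.3 and 6.39 to 59.8.

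**Figure D1:**
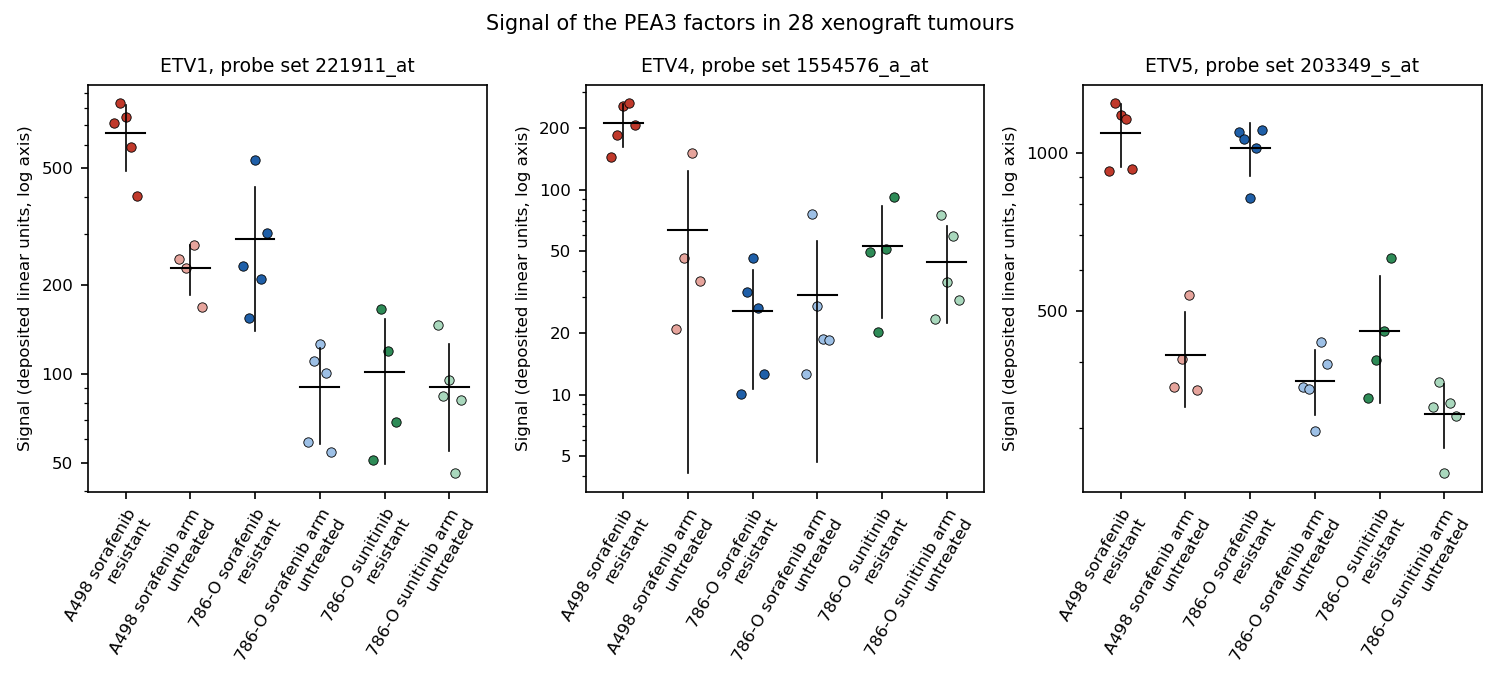
Signal (linear units on a log axis) of the probe set of highest mean of ETV1, ETV4 and ETV5 in each of 28 tumours; points are tumours, wide bars are group means and thin bars 1 SD. ETV5 lies between 821 and 1248 in both sorafenib-resistant groups and no higher than 631 elsewhere, while ETV4 is at 144 or higher in resistant A498 tumours and at most 92.4 in all 786-O tumours.

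The sorafenib comparison in 786-O shares no tumour with the one that chose the genes, but its p-values are not independent of that choice. Earlier results of these data were known when the genes were chosen, and the model takes its spread from all arrays, A498 included. In 786-O tumours resistant to sorafenib, 3 of 4 ETV5 probe sets and 1 of 4 ETV1 probe sets rose. ETV4 was not called, but its signals there were too dim to decide whether it changed. There, 4 of the 10 probe sets were called higher and 0 lower, beside 5.24% called higher over all probe sets tested. ETV5 203349_s_at had 1097, 1067, 821, 1025 and 1108 in resistant tumours, against 359, 356, 296, 437 and 397 in untreated tumours. The lowest resistant tumour, replicate 3, was above the highest untreated one. The difference was 1.44 ± 0.15, or 2.71-fold on this scale (adjusted p = 5.21e-07), and kept its call without any 1 of the 10 tumours.

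A second ETV5 probe set, 203348_s_at, had 616, 706, 521, 769 and 351 in resistant tumours, against 192, 177, 115, 188 and 170.5 in untreated tumours, without overlap and with a rise of 1.69 ± 0.22 (adjusted p = 6.97e-06). The widest ETV5 difference was that of 230102_at, with 362, 277, 287, 289.8 and 330.4 in resistant tumours, against 107, 14.7, 27.9, 14.0 and 135 in untreated tumours. All 5 resistant tumours were above all untreated ones, of which 3 were far below the median signal, and the rise was 2.44 ± 0.43 (adjusted p = 3.90e-04). ETV5 216375_s_at did not overlap between the groups either, with 172 to 246 in resistant and 136 to 159 in untreated tumours, but its difference of 0.47 ± 0.19 missed the threshold (adjusted p = 0.0992), though it was called at 0.57 after centring on the median (adjusted p = 0.0345). ETV5 231083_at, outside the model, was at 26.9 to 54.3 in resistant and 43.5 to 105 in untreated tumours.

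ETV1 221911_at had 234, 155, 532, 211 and 300.4 in resistant tumours, against 58.6, 111, 126, 101 and 54.1 in untreated tumours. Replicate 3 was the highest resistant tumour and the groups did not overlap. The rise was 1.45 ± 0.30, or 2.73-fold (adjusted p = 0.00201), and it kept its call without any 1 of the tumours. The other ETV1 probe sets were not called: 206501_x_at differed by 0.27 ± 0.22 (adjusted p = 0.493), 217053_x_at by -0.16 ± 0.35 (adjusted p = 0.826) and 217061_s_at by -0.12 ± 0.22 (adjusted p = 0.782). Their 95% intervals ran over -0.19 to 0.72, -0.88 to 0.57 and -0.57 to 0.33, none of which reaches that of 221911_at, 0.83 to 2.08. The difference between probe sets was not tested. Averaged over its probe sets, ETV1 differed by 0.32 and was not called (adjusted p = 0.133). ETV1 221910_at, outside the model, was at 30.8 to 90.2 in resistant and 12.8 to 74.4 in untreated tumours.

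ETV4 1554576_a_at had 10.1, 31.5, 46.7, 26.5 and 12.6 in 786-O tumours resistant to sorafenib, against 12.6, 75.9, 27.1, 18.6 and 18.5 in untreated tumours. All were below the median signal and the groups overlapped. The difference was -0.10 ± 0.37 with a 95% interval of -0.86 to 0.65 (adjusted p = 0.897). Its second probe set, 211603_s_at, was at 5.36 to 33.9 in resistant and 6.84 to 24.0 in untreated tumours and differed by 0.17 ± 0.31 (adjusted p = 0.775). Both ETV4 probe sets passed the filter only because of resistant A498 tumours. At signals this dim, the tests in 786-O cannot tell an unchanged ETV4 from a change too faint to see. Whether the lower fibroblast, pericyte and neural marker signal of these resistant tumours bears on the ETV1 and ETV5 values was not tested.

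**Figure D2:**
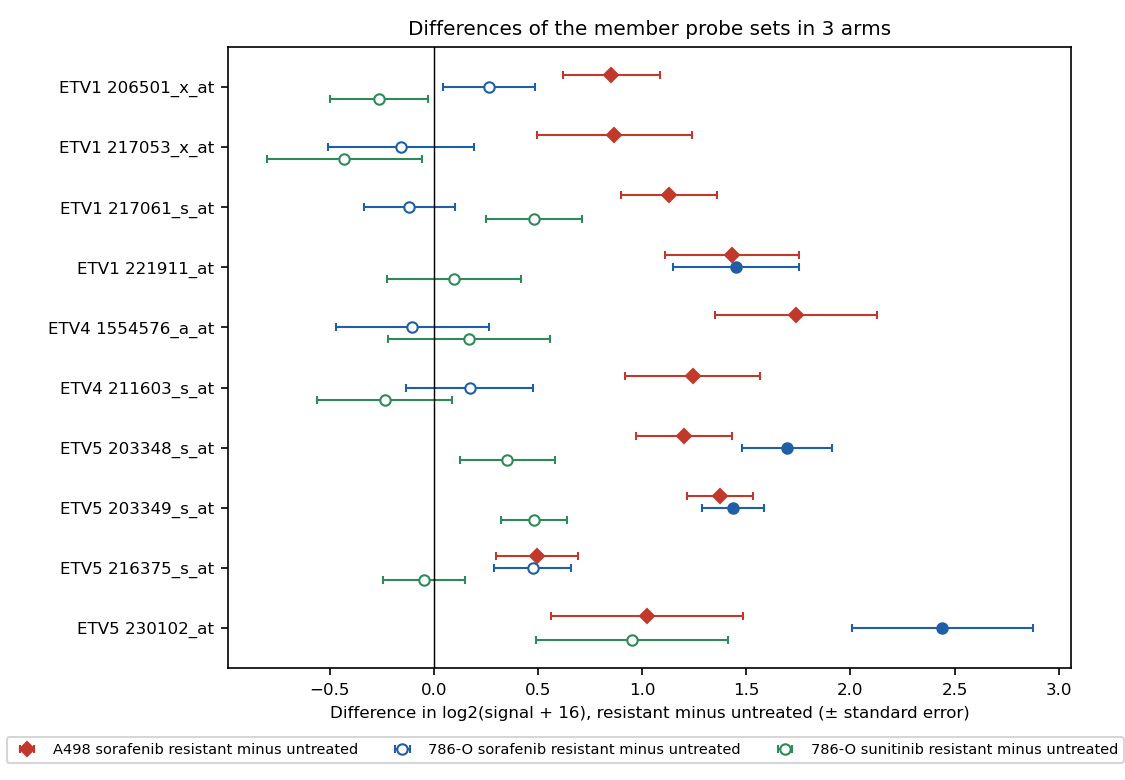
Differences of the 10 probe sets in log2(signal + 16), resistant minus untreated, in 3 arms, with standard errors; filled circles are called, open circles are not, and diamonds mark A498 values, which were not tested. In 786-O with sorafenib 3 ETV5 probe sets and ETV1 221911_at lie between 1.44 and 2.44, both ETV4 probe sets near 0.

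In 786-O tumours resistant to sunitinib, 0 of the 10 probe sets were called by limma, beside 1.33% called higher over all probe sets tested, and 3 had an unadjusted p under 0.05, all higher. The 10 include both ETV4 probe sets, which passed the filter only because of resistant A498 tumours and were dim in this arm too. For these, a missing call cannot tell no change from a change too faint to see. ETV5 203349_s_at had 342, 404, 458 and 631 in resistant tumours, against 329, 367, 246, 335 and 317 in untreated tumours. Resistant replicate 1 lay within the untreated range and the other three above it. The difference was 0.48 ± 0.16 (adjusted p = 0.0933). Without resistant replicate 1 it was 0.61 and was called (adjusted p = 0.0416). ETV5 230102_at had 14.8, 112, 125 and 127 in resistant tumours, against 31.1, 19.4, 41.5, 11.2 and 91.5 in untreated tumours, again with replicate 1 apart from the other resistant tumours, and differed by 0.95 ± 0.46 (adjusted p = 0.28).

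ETV1 221911_at was at 50.9, 166, 120.1 and 68.7 in sunitinib-resistant tumours, against 146, 84.1, 95.5, 46.1 and 81.6 in untreated tumours. The groups overlapped and the difference was 0.10 ± 0.32, with an interval of -0.57 to 0.76 (adjusted p = 0.921). ETV1 217061_s_at was at 63.6, 49.8, 42.5 and 47.1 in resistant and 14.0, 19.9, 28.8, 71.8 and 41.4 in untreated tumours and differed by 0.48 ± 0.23 (adjusted p = 0.28). All signals of 217061_s_at were below the median signal. ETV4 1554576_a_at was at 49.6, 20.2, 51.2 and 92.4 in resistant and 23.4, 75.1, 35.2, 59.4 and 28.9 in untreated tumours, and its difference of 0.17 ± 0.39 had an interval of -0.63 to 0.97. The remaining probe sets, ETV4 211603_s_at, ETV1 206501_x_at and 217053_x_at and ETV5 203348_s_at and 216375_s_at, differed by -0.43 to 0.35 and were not called.

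The 786-O changes under sorafenib and sunitinib were compared directly. Sample titles of the sorafenib arm carry a different leading number from those of the sunitinib arm and of A498. The labels do not say what it stands for, and drug cannot be told apart from it. Of the 10 probe sets, 2 had a sorafenib change minus sunitinib change called above 0, as had 0.435% of all probe sets tested. Both ETV4 probe sets are counted in the 10, although they were too dim in 786-O to decide. For ETV5 203349_s_at the sorafenib change exceeded the sunitinib change by 0.96 ± 0.22 (adjusted p = 0.0359), and for ETV5 203348_s_at by 1.34 ± 0.31 (adjusted p = 0.0424). Both calls were close to the threshold. Leaving out each of the 19 tumours in turn, the first was lost in 13 cases (difference 0.83 to 0.97 there, adjusted p up to 0.0973), namely without sorafenib-resistant replicates 1, 4 and 5, untreated replicates 1, 2 and 3 of that arm, sunitinib-resistant replicates 1, 2 and 3, and untreated replicates 1, 2, 4 and 5 of that arm. The second was lost in 14 (1.09 to 1.38, adjusted p up to 0.104), namely without sorafenib-resistant replicates 1 to 4, untreated replicates 2 to 5 of that arm, sunitinib-resistant replicates 1 and 2, and untreated replicates 1, 2, 3 and 5 of that arm. ETV1 221911_at had a difference between the drugs of 1.36 ± 0.44 and was not called (adjusted p = 0.151), nor was ETV5 230102_at (1.49 ± 0.63, adjusted p = 0.286) or ETV4 1554576_a_at (-0.27 ± 0.53, interval -1.37 to 0.83). Sunitinib-resistant tumours had fibroblast and pericyte markers of 3767 to 8029 in sum, against 4478 to 8979 in untreated tumours of that arm, and neural markers of 15958 to 23963, against 18259 to 23378. Their muscle markers summed to 942 to 2057, against 476 to 1305 in the untreated tumours. In the sorafenib arm muscle sums were 563 to 1003 in resistant and 642 to 2263 in untreated tumours. The median sorafenib change minus sunitinib change was -1.59 over 6 muscle, -0.85 over 10 fibroblast and pericyte and -0.44 over 6 neural markers. Over all genes it was -0.03. The part of these markers in the difference between the drugs was not tested.

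Set beside each other under sorafenib, the changes of the 2 lines were close in size for ETV5 203349_s_at and ETV1 221911_at, with A498 minus 786-O at -0.06 and -0.02, while ETV4 1554576_a_at changed by 1.84 more in A498. The other ETV1 probe sets in the model also changed more in A498, by 0.59 (206501_x_at), 1.025 (217053_x_at) and 1.25 (217061_s_at). The other ETV5 probe sets were at -1.42 (230102_at), -0.49 (203348_s_at) and 0.02 (216375_s_at). Centring on the median lowers all of these by 0.15. These differences contain the A498 values that chose the genes, so they carry no test. The leading number of the sample titles also differs between these tumours of the 2 lines and cannot be told apart from line.

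Untreated A498 tumours were also set against untreated 786-O tumours of the sunitinib arm. As untreated A498 values were among those that chose the genes, the members are described here with no test. Over all probe sets tested, 24.4% were called higher in A498. ETV1 221911_at ranged over 169 to 274 in A498 and 46.1 to 146 in 786-O, without overlap, a difference of 1.25 ± 0.32. ETV5 203348_s_at differed by 0.65 ± 0.23, 230102_at by 1.29 ± 0.46 and 203349_s_at by 0.35 ± 0.16. Against the untreated 786-O tumours of the sorafenib arm, these ETV5 probe sets differed by 0.37, 1.00 and 0.15, in the same order. ETV5 216375_s_at differed by 0.20 ± 0.20 against the sunitinib arm and by -0.13 against the sorafenib arm. ETV4 1554576_a_at differed by 0.22 ± 0.39, and its groups overlapped.

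ETV1 217061_s_at differed by 1.01 ± 0.23 in the same comparison, but by -0.0026 when the untreated 786-O tumours of the sorafenib arm took the place of the others. The 2 untreated 786-O groups themselves differed there: 116, 96.5, 75.3, 76.3 and 48.5 in the sorafenib arm, against 14.0, 19.9, 28.8, 71.8 and 41.4 in the sunitinib arm, which overlap at 1 tumour of each. It was the 1 of 10 probe sets called between these groups (1.01, adjusted p = 0.0386, beside 0.175% of all called higher). This call was lost without sorafenib-arm replicates 1, 2 and 4 and without sunitinib-arm replicates 1, 2 and 3, left out in turn (0.84 to 1.02, adjusted p 0.0634 to 0.0829). The probe sets of highest mean differed by 0.00 (ETV1), -0.44 (ETV4) and 0.20 (ETV5) between the untreated arms and were not called. ETV4 was dim in both of these arms, and the leading number of the sample titles differs between them.

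Ordered by level, ETV5 203349_s_at averaged 1092 ± 151 (SD, n = 5) in resistant A498 tumours, 1024 ± 118 (n = 5) in sorafenib-resistant 786-O tumours, 459 ± 125 (n = 4) in sunitinib-resistant 786-O tumours and 414 ± 85.0 (n = 4) in untreated A498 tumours. The lowest means were 369 ± 52.3 (n = 5) in untreated 786-O tumours of the sorafenib arm and 319 ± 44.6 (n = 5) in those of the sunitinib arm. The first 2 groups overlapped each other and lay apart from the other four, whose ranges ran into one another. For ETV1 221911_at the order was 656 ± 167 in resistant A498, 286 ± 147 in sorafenib-resistant 786-O and 229 ± 44.5 in untreated A498 tumours, then 101 ± 52.1 in sunitinib-resistant 786-O tumours, 90.7 ± 36.1 in untreated tumours of the sunitinib arm and 90.1 ± 32.1 in those of the sorafenib arm. Sorafenib-resistant 786-O tumours overlapped with both A498 groups, which lay apart from each other, and the last 3 groups overlapped. ETV4 1554576_a_at averaged 211 ± 50.0 in resistant and 63.6 ± 59.4 in untreated A498 tumours, and 53.3 ± 29.7 in resistant and 44.4 ± 22.0 in untreated tumours of the 786-O sunitinib arm and 25.5 ± 14.9 in resistant and 30.5 ± 25.9 in untreated tumours of the 786-O sorafenib arm. The 4 786-O groups overlapped one another and untreated A498 tumours, whereas resistant A498 tumours lay above all 786-O tumours and overlapped with untreated A498 at 1 tumour.

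**Figure D3:**
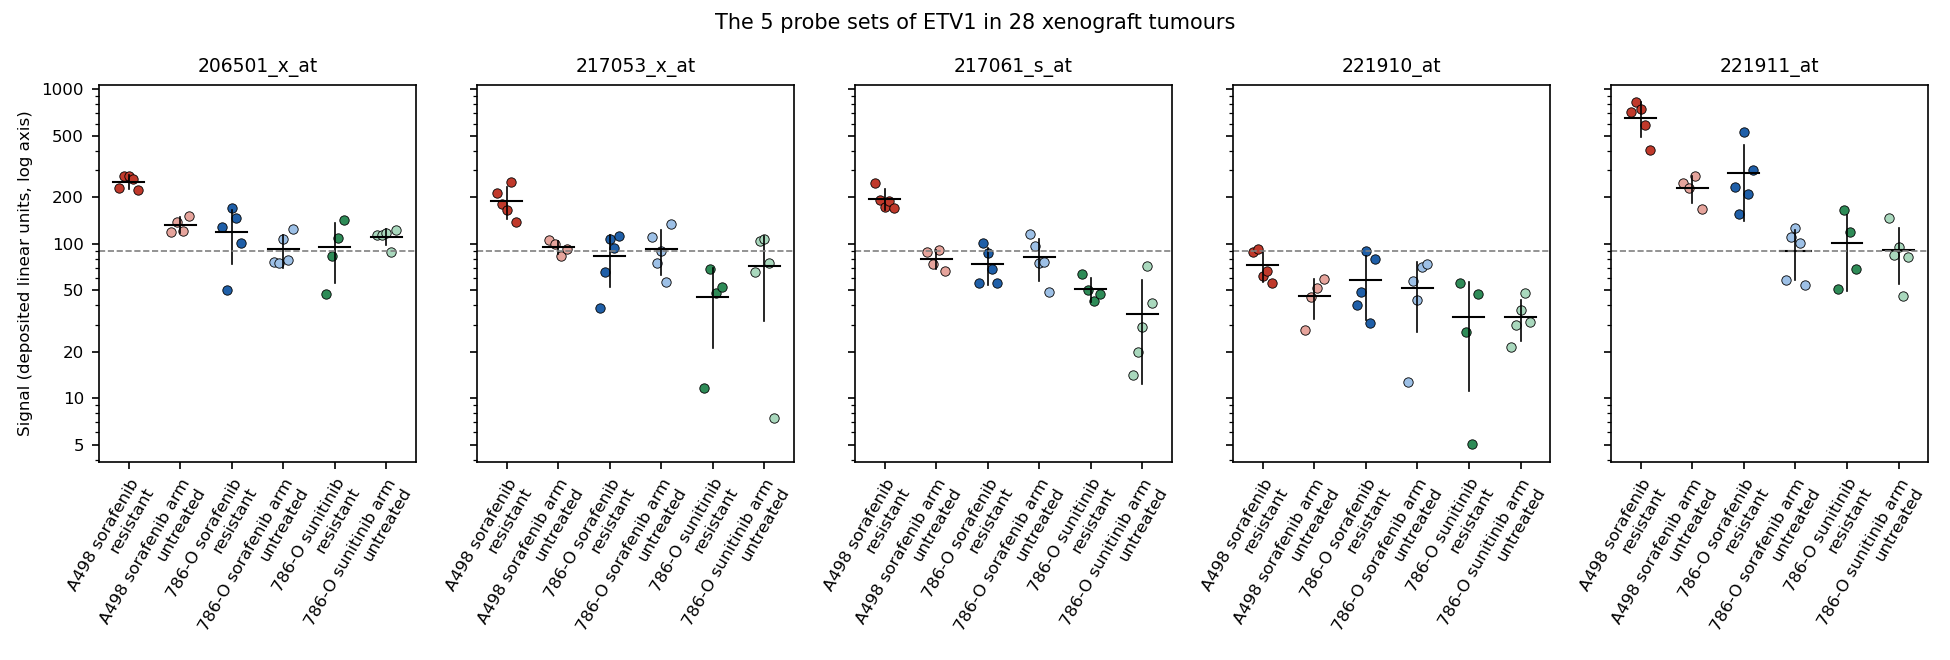
Signal (linear units on a log axis) of the 5 ETV1 probe sets in each tumour; points are tumours, wide bars group means, thin bars 1 SD, and the dashed line is the median signal of all arrays, 89.4. Resistant A498 tumours have the highest mean on all 5, at 72.8 on the dim 221910_at, where 58.0 in sorafenib-resistant 786-O tumours is next. Sorafenib-resistant 786-O tumours stand above their untreated tumours without overlap on 221911_at alone.

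Over the 28 arrays, after each group's mean was taken off, the deviations of ETV1 221911_at and ETV5 203349_s_at correlated with r = -0.08, those of ETV4 1554576_a_at and ETV5 203349_s_at with r = 0.35, and those of ETV1 and ETV4 with r = -0.02. The ETV5 probe sets 203348_s_at and 203349_s_at, which measure 1 gene, reached r = 0.40, and ETV1 221911_at and 206501_x_at r = 0.37. Between genes, other probe sets reached r = 0.46 (ETV1 206501_x_at and ETV5 230102_at), 0.43 (ETV1 221911_at and ETV4 211603_s_at) and 0.42 (ETV1 221911_at and ETV5 216375_s_at). Over all 12 probe sets, r ran over -0.46 to 0.49 in the 21 pairs within a gene (median 0.09) and -0.52 to 0.46 in the 45 pairs between genes (median 0.05). These are descriptions over arrays that share their scaling.

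The genes whose profile over the 28 arrays was nearest to a member were found by the root mean square difference of centred log2 values. For ETV5, which itself varied by 0.74 about its mean, these were LRP8, a reelin and apolipoprotein E receptor (0.39), HIVEP3, a zinc finger protein (0.40), RPS6KA5, a kinase downstream of ERK and p38 (0.44), HMGA2, a chromatin protein of growing tissues (0.44), and IRAK2, a kinase of interleukin-1 receptor signalling (0.45). LRP8 averaged 941 in resistant and 541 in untreated A498 tumours, and 1104 in resistant and 416 in untreated 786-O tumours of the sorafenib arm. For ETV1, which varied by 1.10, they were AKAP12, a scaffold of protein kinase A (0.51), TRPM8, a cold-activated cation channel (0.54), SLC5A3, a myo-inositol transporter (0.57), LOC101928230 (0.60) and MRPS6, a mitochondrial ribosomal protein (0.62). For ETV4, which varied by 1.01, they were L1CAM, a cell adhesion molecule (0.60), C9orf50 (0.62), TMEM38A, a cation channel of intracellular stores (0.64), LOC101928230 (0.65) and MGRN1, a ubiquitin ligase (0.65). For each of these genes, ETV5 included, the distances left are large beside its own variation.

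The pathway around the genes was read from lists by role, as counts of called genes (probe set of highest mean). In 786-O with sorafenib 5.34% of 13808 genes were called higher and 8.29% lower, with a median of -0.05 over all genes. Of 16 genes measured on the growth factor ligand list, 6 rose and 4 fell (median 0.07). HBEGF, an EGF receptor ligand (1.61 ± 0.35), and EREG, epiregulin (1.13 ± 0.31), rose. KITLG, the KIT ligand (-0.98 ± 0.19), and FGF13 (-0.89 ± 0.28) fell, though FGF13 is an intracellular FGF homologue counted on the list and not a secreted ligand. The EREG call was lost without resistant replicates 4 and 5 and without untreated replicates 4 and 5 (adjusted p up to 0.0577) and that of FGF13 without resistant replicates 1, 2, 4 and 5 and without untreated replicates 3, 4 and 5 (adjusted p up to 0.105), left out in turn. Of 15 receptor kinases, 1 rose and 4 fell (median -0.19): AXL (0.56 ± 0.17) rose and the FGF receptors FGFR3 (-1.55 ± 0.23), FGFR4 (-1.43 ± 0.20) and FGFR2 (-1.94 ± 0.35) fell. The FGFR2 value turned to 0.27 and the call was lost when probe sets open to cross-hybridisation were left out, and the AXL call was lost without resistant replicates 2, 4 and 5 and without untreated replicates 1 and 5 in turn (adjusted p up to 0.083). Averaged over probe sets, AXL was at 0.10 (adjusted p = 0.795) and EREG at 0.54 (adjusted p = 0.198), neither called, and FGF13 lost its call without the 2 arrays of highest ACTB difference (adjusted p = 0.149). FGF13 was also not called after centring on the median (-0.79, adjusted p = 0.0684) or quantile normalisation (-0.84, adjusted p = 0.0553). Of 14 genes of the RAS to ERK cascade itself, 0 were called by limma and 2 had an unadjusted p under 0.05 (median 0.04).

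Of 18 regulators of PEA3 factors in the same comparison, 2 rose and 1 fell (median 0.03). RPS6KA5 rose by 1.11 ± 0.12 (adjusted p = 8.98e-07) and SIK1, a salt-inducible kinase, by 1.00 ± 0.16 (adjusted p = 1.66e-04), while ATXN1L, a partner of capicua, fell by 0.37 (adjusted p = 0.0057). All 3 calls depended on the choice of probe set. SIK1 was at 0.046 (adjusted p = 0.944) without probe sets open to cross-hybridisation. Averaged over probe sets, ATXN1L was at -0.034 (adjusted p = 0.874), RPS6KA5 at 0.36 (adjusted p = 0.0541) and SIK1 at 0.52 (adjusted p = 0.051). After centring on the median, ATXN1L was at -0.28 and not called (adjusted p = 0.0546). CIC itself was at 614, 386, 416, 512 and 469 in resistant tumours, against 555, 565, 485, 376 and 558 in untreated tumours. The groups overlapped and the difference was -0.08 ± 0.22 (interval -0.54 to 0.37, adjusted p = 0.859).

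ERK output was the list with the most calls in this comparison, 15 of 24 genes higher and 1 lower, with a median of 0.79. MAFF, a small MAF transcription factor (2.49 ± 0.26), DUSP5, a nuclear ERK phosphatase (1.99 ± 0.20), FOSL1, an AP-1 subunit (1.95 ± 0.20), and PHLDA1 (1.90 ± 0.20) rose most. DUSP6 had 1023, 1083, 1259, 1343 and 1624 in resistant tumours, against 527, 345, 472, 494 and 639.7 in untreated tumours, without overlap, and rose by 1.33 ± 0.17 (adjusted p = 4.82e-06). SPRY2 had 269.8, 305, 309, 267 and 402 in resistant tumours, against 194, 127, 148, 179 and 246 in untreated tumours. It too did not overlap and rose by 0.76 ± 0.20 (adjusted p = 0.0123), whereas SPRY4 was not called (0.43 ± 0.22, adjusted p = 0.231). The other ETS factors had 5 of 17 higher and 0 lower (median 0.10), led by ELK3, an ETS factor that ERK phosphorylates (1.03 ± 0.13), ETV6, a repressor (0.86 ± 0.15), ETS2 (0.72 ± 0.17) and ELF4 (0.64 ± 0.10). Among genes reported as PEA3 targets 7 of 19 were higher and 0 lower (median 0.32). MMP1, interstitial collagenase (3.67 ± 0.49), and ICAM1, an adhesion molecule (0.88 ± 0.14), were among them, and so were MMP10, stromelysin 2 (1.31 ± 0.39), and CXCR4, a chemokine receptor (0.97 ± 0.27). Single tumours left out in turn, the MMP10 call was lost without resistant replicates 2, 4 and 5 and without untreated replicate 3 (adjusted p up to 0.0954) and the CXCR4 call without resistant replicate 4 and without untreated replicate 5 (adjusted p up to 0.0548). Without the 2 arrays of highest ACTB difference MMP10 (1.32, adjusted p = 0.0776), CXCR4 (0.77, adjusted p = 0.128) and ETS2 (0.51, adjusted p = 0.078) were not called, nor was ETS2 averaged over its probe sets (0.36, adjusted p = 0.112) or MMP10 with a pseudocount of 1 (adjusted p = 0.145). Whether the lower fibroblast, pericyte and neural marker sums of these resistant tumours bear on the lists was not tested.

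In the sunitinib arm 1.69% of genes were called higher and 2.31% lower, with a median of -0.01. The ERK output list had 5 of 24 higher and 2 lower (median 0.31), and its members split. FOSL1 (0.97 ± 0.21), SPHK1, sphingosine kinase (0.95 ± 0.22), and SPRY4 (0.89 ± 0.24) rose, and EPHA4, an ephrin receptor (-0.84 ± 0.22), fell. SPRY2 had 145, 146, 92.8 and 61.4 in resistant tumours, against 273, 238, 138, 212 and 157 in untreated tumours, which overlap, and fell by 0.81 (adjusted p = 0.0311). DUSP6 had 340.0, 435, 318 and 275 in resistant tumours, against 479.6, 396, 529, 443 and 388 in untreated tumours. Its difference was -0.38 ± 0.17 and it was not called (adjusted p = 0.248). These calls depended on single tumours. They were lost for SPRY2 without resistant replicates 3 and 4 and without untreated replicates 1, 2 and 4 (adjusted p up to 0.134), for SPRY4 without resistant replicates 1, 3 and 4 and without untreated replicates 2 and 4 (up to 0.154), for EPHA4 without resistant replicates 3 and 4 and without untreated replicates 1 and 2 (up to 0.0974), for FOSL1 without resistant replicates 2 and 3 (up to 0.066) and for SPHK1 without resistant replicate 4 (up to 0.0657), each left out in turn. Fitted on the arrays of the comparison alone, SPRY2, SPRY4, EPHA4 and FOSL1 were not called either (adjusted p 0.101 to 0.165). After centring on the median SPRY2 (-0.75, adjusted p = 0.0564) and EPHA4 (-0.77, adjusted p = 0.0542) were not called. Nor was SPRY2 after quantile normalisation (-0.74, adjusted p = 0.0666). With no filter SPRY2, SPRY4 and EPHA4 were not called (adjusted p 0.0530 to 0.0632). SPRY4 was at 0.49 with a pseudocount of 64 (adjusted p = 0.0751) and 0.50 with untreated 786-O tumours pooled (adjusted p = 0.242).

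The other lists held few calls with sunitinib. Ligands had 1 of 16 higher, VEGFA (0.43 ± 0.11), and 1 lower, KITLG (-0.75 ± 0.20; median -0.08). The VEGFA call was lost without resistant replicates 2, 3 and 4 and without untreated replicates 1, 2 and 5 and that of KITLG without resistant replicates 2, 3 and 4 and without untreated replicates 1, 2 and 4 (adjusted p up to 0.128). Receptor kinases had 0 of 15 higher and 1 lower, FGFR4 (-1.21 ± 0.21; median -0.19). The cascade had 0 of 14 called by limma and 5 at an unadjusted p under 0.05 (median 0.05). The regulators had SIK1 higher (1.31 ± 0.17) and ATXN1L lower (-0.39 ± 0.09) of 18 (median -0.01), with CIC at -0.17 ± 0.23 (adjusted p = 0.763). Other ETS factors had 2 of 17 higher, ELK3 (0.53 ± 0.14) and ELF4 (0.38 ± 0.10; median 0.07), and the reported targets 2 of 19, BCL2L1, a survival factor (0.72 ± 0.17), and ICAM1 (0.61 ± 0.15; median 0.16). Of these, FGFR4 and SIK1 kept their calls without any 1 tumour, but SIK1 was at 0.37 and not called (adjusted p = 0.588) without probe sets open to cross-hybridisation. The other 5 named lost them without at least 1, at adjusted p up to 0.0672 (ATXN1L, without resistant replicate 2 and without untreated replicate 1), 0.0893 (ELK3, without resistant replicates 1, 2, 3 and 4 and without untreated replicates 2 and 3), 0.119 (ELF4, without resistant replicates 2, 3 and 4 and without untreated replicates 1, 3 and 4), 0.0657 (BCL2L1, without resistant replicate 3) and 0.0662 (ICAM1, without resistant replicates 2, 3 and 4 and without untreated replicate 1). Averaged over probe sets, ATXN1L was at -0.16 (adjusted p = 0.482), KITLG at -0.46 (adjusted p = 0.161), ELF4 at 0.32 (adjusted p = 0.136), ELK3 at 0.47 (adjusted p = 0.055) and BCL2L1 at 0.42 (adjusted p = 0.0827), none of them called. After centring on the median ATXN1L (-0.33, adjusted p = 0.0684) and KITLG (-0.68, adjusted p = 0.0751) were not called. After quantile normalisation KITLG (-0.74, adjusted p = 0.0514) and VEGFA (0.30, adjusted p = 0.0919) were not called. With only the arrays of the comparison ATXN1L, VEGFA, KITLG, ELK3, ELF4 and ICAM1 were not called (adjusted p 0.0613 to 0.145).

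Between the drugs in 786-O, 7 of 24 ERK output genes had a sorafenib change minus sunitinib change called above 0, and 0 had one called below 0. Over all genes 0.391% were called above 0 and 0.369% below 0. This difference keeps the signs of the changes, so it need not be one of size alone. SPRY2 rose with sorafenib and fell with sunitinib, though the call of that fall was lost under other scalings and without single tumours. DUSP6 differed by 1.72 ± 0.24 (adjusted p = 4.89e-04), HMGA2 by 1.84 ± 0.31 (adjusted p = 0.00359), MAFF by 1.61 ± 0.37 (adjusted p = 0.0389), PHLDA1 by 1.60 ± 0.29 (adjusted p = 0.00732) and SPRY2 by 1.57 ± 0.29 (adjusted p = 0.00732). RPS6KA5 was also called above 0 (1.16 ± 0.18, adjusted p = 0.00134), as was the ligand EREG (1.95 ± 0.45, adjusted p = 0.038), each the only called gene of its list. SPRY4 was not called (-0.46 ± 0.33, adjusted p = 0.564). The MAFF call was lost without sorafenib-resistant replicates 4 and 5, untreated replicates 2, 3 and 4 of that arm, sunitinib-resistant replicates 1 and 4 and untreated replicates 1, 3 and 5 of that arm (adjusted p up to 0.0938). The EREG call was lost without sorafenib-resistant replicates 3, 4 and 5, untreated replicates 1, 4 and 5 of that arm, sunitinib-resistant replicates 1, 2 and 3 and untreated replicates 3, 4 and 5 of that arm (adjusted p up to 0.0815). Without probe sets open to cross-hybridisation HMGA2 was at 1.32 (adjusted p = 0.221) and RPS6KA5 at 0.49 (adjusted p = 0.326), and averaged over probe sets RPS6KA5 was at 0.28 (adjusted p = 0.524), MAFF at 1.22 (adjusted p = 0.141) and EREG at 1.24 (adjusted p = 0.13), none of them called. By limma 0 of 19 reported targets, 0 of 17 other ETS factors, 0 of 14 cascade genes and 0 of 15 receptor kinases were called, with 2, 4, 2 and 3 at an unadjusted p under 0.05.

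In A498 with sorafenib, the comparison that chose the genes, 2.38% of genes were called higher and 2.84% lower, with a median of 0.03. These counts are given as a description. The ERK output list had 3 of 24 higher and 1 lower (median 0.29): HMGA2 (1.39 ± 0.23), FOSL1 (0.85 ± 0.21) and DUSP6 (0.60 ± 0.17) were higher and TFPI2, a protease inhibitor (-0.93 ± 0.18), lower. DUSP6 had 602, 1004, 622, 585 and 767 in resistant tumours, against 439.9, 389, 476 and 535 in untreated tumours, without overlap, but its call was lost without resistant replicates 2, 3 and 5 and without untreated replicates 1, 2, 3 and 4 in turn (adjusted p up to 0.143). The FOSL1 call was lost without resistant replicate 2 and without untreated replicates 2 and 4 (up to 0.0882). HMGA2 was at 1.02 and not called without probe sets open to cross-hybridisation (adjusted p = 0.0957). With only the arrays of the comparison DUSP6, FOSL1 and TFPI2 were not called (adjusted p 0.0728 to 0.125), and DUSP6 was not called after centring (0.55, adjusted p = 0.0769). SPRY2 (0.33 ± 0.21, adjusted p = 0.423) and SPRY4 (0.44 ± 0.24, adjusted p = 0.329) were not called.

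The regulators in A498 had 3 of 18 higher and 1 lower (median 0.09), namely SIK1 (1.03 ± 0.17), DET1 (0.54 ± 0.10) and RPS6KA5 (0.49 ± 0.13) higher and RPS6KA3, a ribosomal S6 kinase (-0.43 ± 0.12), lower. CIC was at 417, 444, 259, 511 and 379.7 in resistant tumours, against 299.8, 274, 228 and 295 in untreated tumours, which overlapped, and was not called (0.50 ± 0.23, adjusted p = 0.25). Untreated A498 tumours had less CIC signal than untreated 786-O tumours of the sunitinib arm, 589, 856, 431, 653 and 257, a difference of -0.88 ± 0.23 (adjusted p = 0.00252). These groups overlapped too, and 14232 of the 26924 probe sets tested were called between the untreated lines, in either direction. Ligands had TGFA, an EGF receptor ligand, higher (0.77 ± 0.15) and NRG1, neuregulin, lower (-0.65 ± 0.15) of 16 (median -0.12). Receptor kinases had 0 of 15 by limma, with 2 at an unadjusted p under 0.05 (median 0.01), and the cascade had 1 of 14 higher, MAP2K2, the kinase MEK2 (0.45 ± 0.13; median -0.04). Other ETS factors had ELK3 (0.56 ± 0.14) and ERF, a repressor that ERK inactivates (0.48 ± 0.12), higher of 17 (median 0.18), and the reported targets 0 of 19 higher and 1 lower, PLAU, urokinase (-0.70 ± 0.18; median 0.06). Single tumours left out in turn, the call of ELK3 was lost without resistant replicate 3 and without untreated replicate 1, that of PLAU without resistant replicates 2 and 5 and without untreated replicate 4, that of RPS6KA5 without resistant replicates 3 and 5 and without untreated replicates 2, 3 and 4 and that of ERF without resistant replicates 3, 4 and 5 and without untreated replicates 2 and 4. The call of RPS6KA3 was lost without resistant replicates 3, 4 and 5 and without untreated replicates 1, 2 and 4 and that of MAP2K2 without resistant replicates 2, 3, 4 and 5 and without untreated replicates 1, 2 and 4, and the highest adjusted p of these 6 was 0.154. Without probe sets open to cross-hybridisation SIK1 was at 0.32 (adjusted p = 0.627), RPS6KA5 at 0.22 (adjusted p = 0.511) and NRG1 at -0.10 (adjusted p = 0.912), none of them called. Averaged over probe sets, RPS6KA5 was at 0.21 (adjusted p = 0.409), MAP2K2 at 0.28 (adjusted p = 0.29), ERF at 0.29 (adjusted p = 0.536) and TGFA at 0.64 (adjusted p = 0.0766), again not called. With only the arrays of the comparison NRG1, DET1, RPS6KA5, RPS6KA3, MAP2K2, ELK3, ERF and PLAU were not called (adjusted p 0.0566 to 0.162). After centring on the median ELK3 (0.51), ERF (0.42), RPS6KA5 (0.44) and MAP2K2 (0.40) were not called (adjusted p 0.0554 to 0.108).

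**Figure D4:**
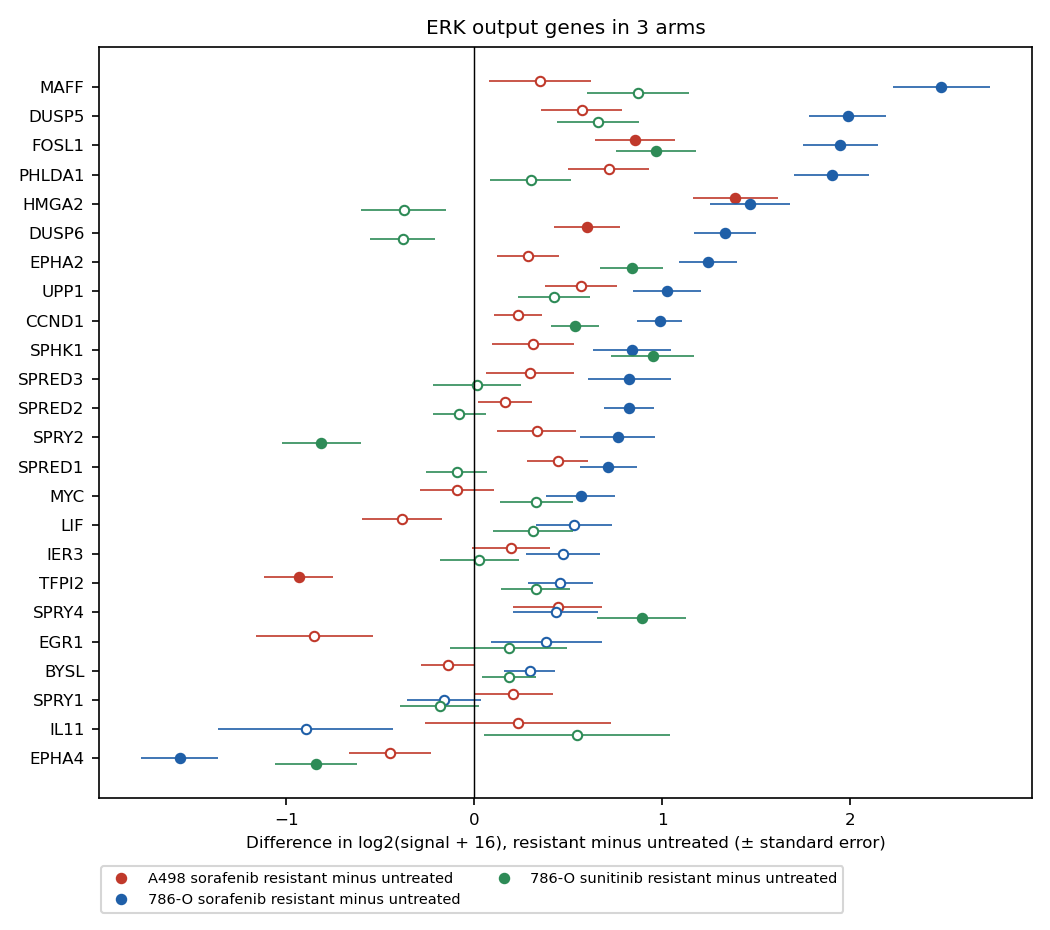
Differences in log2(signal + 16), resistant minus untreated, with standard errors, of the 24 ERK output genes measured, ordered by their value in 786-O with sorafenib; filled points are called and open points are not. In 786-O with sorafenib 15 genes are called higher, among them DUSP6 at 1.33, which is at -0.38 with sunitinib and 0.60 in A498.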

How the data were processed

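RNA of 28 xenograft tumours was measured on Affymetrix HG-U133 Plus 2.0 arrays. The authors deposited 1 linear intensity per probe set and array, and per the submitters' processing notes RMA and MAS5 were used, with no versions or order. The values are not on a log scale and share a trimmed mean of 500.1 (2% off each end), as MAS5 signals do. Genes were named from the platform annotation, updated through RefSeq, and 41091 probe sets had 1 symbol, 1801 several and 11721 none (62 controls left out). Files hold no scanner values, so background cannot be set per probe, and the number of arrays limits the precision.

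In R 4.3.3, limma 3.58.1 was fitted to log2(signal + 16) with 1 coefficient per group over all 28 arrays, on probe sets above 89.4 (the median of all values) on at least 4 arrays, with Benjamini-Hochberg adjustment and a threshold of 0.05, and was tested on simulated data. Gene counts use the probe set of highest mean. Figures were drawn with Python 3.11.15 and matplotlib 3.10.9. The genes and lists were chosen with earlier results of these data known, and lists overlap with the nearest genes at L1CAM, HMGA2 and RPS6KA5. Named were every probe set of the 3 genes, up to 4 called genes of largest difference per list and comparison, DUSP6, SPRY2 and SPRY4, and the 5 nearest genes. CIC and the values of LRP8 were added after values were seen. Replicates were numbered in accession order. Alternatives to the pseudocount, filter, normalisation, probe-set choice, covariates, spread estimate and samples were run.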

Additional observations from a re-analysis of the deposited data

Results flagged for a closer look

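In 6 of 72 sets of 4 or 5 tumours screened, 1 tumour lay further from the others than Dixon's test allows at the 95% level, which chance gives in about 1 in 20. Of these, 3 concern ETV5 in the 786-O sorafenib arm. ETV5 203349_s_at was lowest in resistant replicate 3, at 821, ETV5 203348_s_at was lowest in untreated replicate 3, at 115, and ETV5 231083_at, which did not enter the model, was highest in untreated replicate 5, at 105. Resistant replicate 3 was also the tumour with the highest ETV1 221911_at signal of its group. In the 786-O sunitinib arm ETV5 230102_at was lowest in resistant replicate 1, at 14.8. In untreated tumours of that arm ETV1 206501_x_at was lowest in replicate 4, at 89.1, and ETV1 217053_x_at in replicate 5, at 7.39.

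The ETV5 change under sorafenib exceeded that under sunitinib in 786-O by 1.34 (203348_s_at) and 0.96 (203349_s_at) in the direct test of the difference.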

How the results depend on the processing

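For the probe set of highest mean of each gene, 297 of 320 values under other settings kept their direction and their side of the threshold (for values with no test, within 1 SD), 8 lost a call and 15 moved with no call. The ETV5 difference between the drugs (0.96) was not called with no filter (0.955), with only the arrays of the comparison (0.955), with the mean of the probe sets (0.689), without probe sets open to cross-hybridisation (1.49), after centring on the median (0.981), after quantile normalisation (0.901) or without the 2 arrays of highest ACTB difference (0.981). In untreated A498 against 786-O, ETV5 was at 1.29 without probe sets open to cross-hybridisation and ETV1 at 0.668 averaged over probe sets. Averaging the probe sets gave 0.321 for ETV1 in 786-O with sorafenib, no longer called, and 0.0345 for ETV4 (0.018 after quantile normalisation). It gave -0.0469 for ETV1 and -0.0342 for ETV4 with sunitinib, 0.0687 for ETV4 between the drugs, 0.641 for ETV1 between the lines, and 0.950 for ETV5 in A498. Without probe sets open to cross-hybridisation ETV5 was at 1.02 in A498 and -1.42 between the lines, and FGFR2 turned to 0.266 with sorafenib and to -0.344 between the untreated lines. ETV1 between the untreated 786-O arms, at 0.001, was -0.0011 with a pseudocount of 64, -0.0492 after centring, -0.0856 after quantile normalisation and -0.0052 with GAPDH as a covariate, and ETV1 217061_s_at turned to -0.0026 against the other 786-O arm. The cause was not tested for any of these.

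Leaving out each tumour in turn kept 227 of 255 such values. ETV5 ran over 0.830 to 1.12 between the drugs, 0.320 to 0.606 with sunitinib and 0.225 to 0.418 between the untreated lines. ETV1 ran over -0.152 to 0.330 with sunitinib and -0.177 to 0.169 between the untreated arms. ETV4 ran over -0.271 to 0.177 with sorafenib and -0.0812 to 0.447 with sunitinib in 786-O, -0.550 to 0.0082 between the drugs and -0.222 to 0.505 between the untreated lines.

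Counts of called probe sets moved by over 1.5 times: 3225 in 786-O with sorafenib (1508 to 4104 over all settings), 913 with sunitinib (313 to 1955), 1188 in A498 (216 to 1989), 201 between the drugs (88 to 296), 14232 between the untreated lines (6094 to 15863) and 103 between the untreated arms (5 to 206). No paired analysis was possible because the replicate numbers only follow accession order. Dim probe sets limit what can be seen of ETV4 in 786-O.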
